A study of Mus musculus with 6 samples.

Results

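The sites described here are the molar pSmad1/5 peaks that overlap a limb Smad4 peak by at least 1 bp. They number 681 of the 35476 peaks called for pSmad1/5 in the molar tooth germ, or 1.92% (95% interval 1.779 to 2.068%), and they come from a series whose 4 peak lists hold 123182 peaks in all. They were chosen by position alone, and they are set against the other 34795 molar pSmad1/5 peaks. All tissue was wild-type CD1 mouse at E13.5, in mid gestation, taken either as molar tooth germ or as limb, fixed in 1% formaldehyde for 15 min and precipitated with an antibody to pSmad1/5 or to Smad4. Each combination of tissue and antibody had 1 library, and the 2 inputs, 1 per tissue, were not analysed here. No difference below therefore has a replicate check, and tissue and antibody both differ between the lists that define these sites, so their parts cannot be told apart. Intervals on shares are exact (Clopper-Pearson) binomial intervals that cover counting error over peaks only. Whole tissues were used, so a peak does not say which cell type held the factor, and peak lists hold no expression by which to check the labelled tissue.

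Smad1 and Smad5 are the receptor-regulated Smads of the bone morphogenetic protein (BMP) pathway. After phosphorylation by an activated type I receptor they bind the common partner Smad4, enter the nucleus and act with it at GC-rich and GTCT-type DNA elements. BMP signals pass between epithelium and mesenchyme in the tooth germ, and in the limb bud they act in digit patterning, in cartilage formation and in the feedback loop with Grem1 and Shh.

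Shared sites lying just upstream of a gene start are shown first, because shared sites were concentrated around gene starts and the sequence used here was that of promoter windows. Most summits near starts lay downstream of the start, so these upstream stretches stand for the smaller group. The stretches below are the parts of 4 shared peaks that lie before an annotated start and overlap no annotated gene, read 5′ to 3′ on the strand of the gene from RefSeq promoter windows of GRCm38.p6 (the coordinates of mm10). Efna3 (an ephrin, a membrane-bound guidance ligand) is on the minus strand at chr3:89322940-89323051, Batf3 (a basic leucine zipper transcription factor) on the plus strand at chr1:191098260-191098370, and Safb (a nuclear scaffold-attachment protein) on the plus strand at chr17:56584923-56584981. Ubqln1 (a ubiquitin-binding shuttle protein) is on the minus strand at chr13:58215654-58215799, and its peak also overlapped limb pSmad1/5. Capitals mark GGGCGG, the core of the GC box, or GGCGCC, a GC-rich Smad1/5-type element. They were chosen after their values were seen, apart from Efna3, as examples with and without these letters.
Efna3: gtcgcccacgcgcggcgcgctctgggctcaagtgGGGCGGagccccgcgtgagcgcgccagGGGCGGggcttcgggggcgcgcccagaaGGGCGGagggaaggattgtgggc
Batf3: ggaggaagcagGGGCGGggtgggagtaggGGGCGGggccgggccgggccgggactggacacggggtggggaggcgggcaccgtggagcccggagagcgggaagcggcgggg
Safb: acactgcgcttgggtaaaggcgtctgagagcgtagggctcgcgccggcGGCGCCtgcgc
Ubqln1: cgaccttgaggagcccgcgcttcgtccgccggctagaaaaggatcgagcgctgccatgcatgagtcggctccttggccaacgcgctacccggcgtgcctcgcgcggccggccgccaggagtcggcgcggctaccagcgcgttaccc

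The Efna3 stretch covers the last 112 bases before the start, is 78.6% G or C and holds GGGCGG 3 times. Batf3 (111 bases) reached 81.1% G or C and holds it 2 times. In Safb (59 bases, 71.2% G or C) the single GGCGCC lies close to the start. Ubqln1 (146 bases, 71.2% G or C) holds none of the letters searched but has 23 CpG dinucleotides. Of the 22 shared peaks with at least 40 such bases, 11 held a motif. A match is only a description of the letters.

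These letters were then counted in the 250 bases upstream of protein-coding starts, on either strand, where the motifs searched were GGCGCC, GTCTAGAC (a palindromic Smad element), CAGACA (an extended Smad4 element) and GGGCGG. Of the 384 promoters with a shared site within 1 kb of the start, 27.34% held GGCGCC (22.95 to 32.1%). The share was 21.98% (20.64 to 23.36%) of the 3622 promoters that had only another molar pSmad1/5 peak, and 12.28% of all 21238 promoters, so the first 2 groups lay close together and both lay above the whole. GGGCGG was held by 70.31%, 65.68% and 42.61% in the same order. CAGACA was held by 12.24%, 11.49% and 15.17%. GTCTAGAC was in 0 of the 384 promoters with a shared site, which allows a share of up to 0.956%, and in 0.1836% of all promoters.

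Base composition moved with these counts. Promoters with a shared site had a median G and C content of 65.2%, against 63.6% with another molar pSmad1/5 peak and 55.6% over all promoters, and median ratios of observed to expected CpG of 0.80, 0.774 and 0.530. A ratio of at least 0.6 was held by 81.25% of promoters with a shared site (76.98 to 85.03%) and 73.27% of those with another peak (71.8 to 74.71%). Inside the peaks themselves G and C content did not separate the groups. The 79 shared peaks and 926 other peaks lying wholly within promoter windows had medians of 70.1% and 70.2%. Their median numbers of CpG per 100 bases were 11.48 and 10.34. The part of base composition in the motif counts was not tested.

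Shared sites lay at gene ends far more often than the other molar pSmad1/5 peaks. The summit was within 1 kb of either annotated end of a protein-coding gene at 342 of 681 shared sites, 50.2% (46.4 to 54.04%), and at 4760 of 34795 other peaks, 13.7% (13.32 to 14.05%). The difference was 36.5 percentage points (Newcombe interval 32.78 to 40.3). The median distance to the nearest end was 988 bp at shared sites (quartiles 277 and 6444 bp) and 19520 bp at the others (3814 and 78001 bp). A further 261 shared sites (38.3%) were elsewhere inside a protein-coding gene and 78 (11.5%) were outside such genes. Among the other peaks 44.5% were elsewhere inside a gene and 41.8% outside, so the shortfall at shared sites was mostly in intergenic positions. Sites more than 50 kb from any protein-coding end made up 7.20% of shared sites and 32.4% of the others. Read the other way, 6.70% of molar pSmad1/5 peaks near gene ends, 1.66% of those inside genes and 0.533% of those outside were over limb Smad4.

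The ends concerned were mostly starts. Where the strand of the gene was known, the nearest end was the start at 263 of 275 shared sites near ends, 95.6% (92.5 to 97.73%), and at 3116 of 3756 other peaks near ends, 82.96% (81.72 to 84.15%). Summits fell within 100 bp of an annotated start at 14.1% of shared sites and 2.74% of other peaks, within 250 bp at 26.3% and 5.52%, and within 1 kb at 46.9% and 10.9%. These start-based shares use the 661 shared and 34191 other peaks on chromosomes with start annotation. Around the start the profile was not symmetrical, as 218 of 310 shared summits within 1 kb lay downstream (70.3%, 64.9 to 75.35%), with a median position of 108 bp past the start. The other peaks had a similar lean, with 65.7% downstream and a median of 121 bp. Starts with a second gene start within 1 kb of the summit, as at divergent promoters, made up 12.3% of the shared and 7.24% of the other cases (8.822 to 16.44% and 6.424 to 8.118%).

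**Figure D1:**
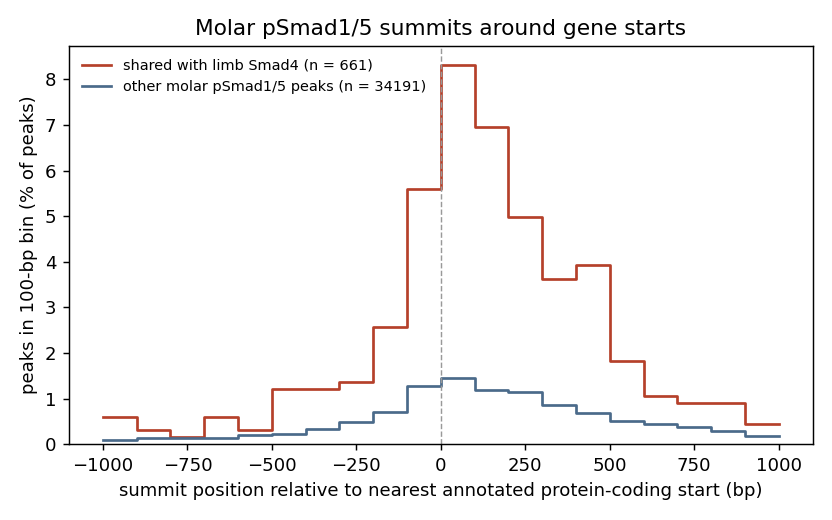
Position of molar pSmad1/5 summits relative to the nearest annotated protein-coding start (x axis, bp, negative upstream) as percent of peaks in each 100-bp bin (y axis), for 661 shared sites and 34191 other peaks. Both profiles were highest in the first 100 bp past the start, where shared sites reached 8.32% and the other peaks 1.45%.

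The concentration at gene ends did not begin at the overlap that defines the sites. Of the 80 sites overlapping limb Smad4 by only 1 to 9 bp, 32 were near an end (interval 29.2 to 51.56%), and of the 79 peaks just outside, with a gap under 10 bp, 36 were (45.6%, 34.31 to 57.17%). Peaks with a gap of 10 to under 100 bp had 51.8% near ends, the level of sites overlapping by 10 bp or more (51.6%). The share was still 43.2% at gaps of 100 to under 500 bp, was 22.9% at 500 to under 2000 bp and 13.3% at 2000 to under 10000 bp, and was 7.69% at 50000 bp or more. A further 625 peaks lay within 100 bp of a limb Smad4 peak without overlapping it, close to the number of shared sites. The high share near gene ends was therefore also present in molar pSmad1/5 peaks that lay within 500 bp of a limb Smad4 peak and did not overlap it.

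**Figure D2:**
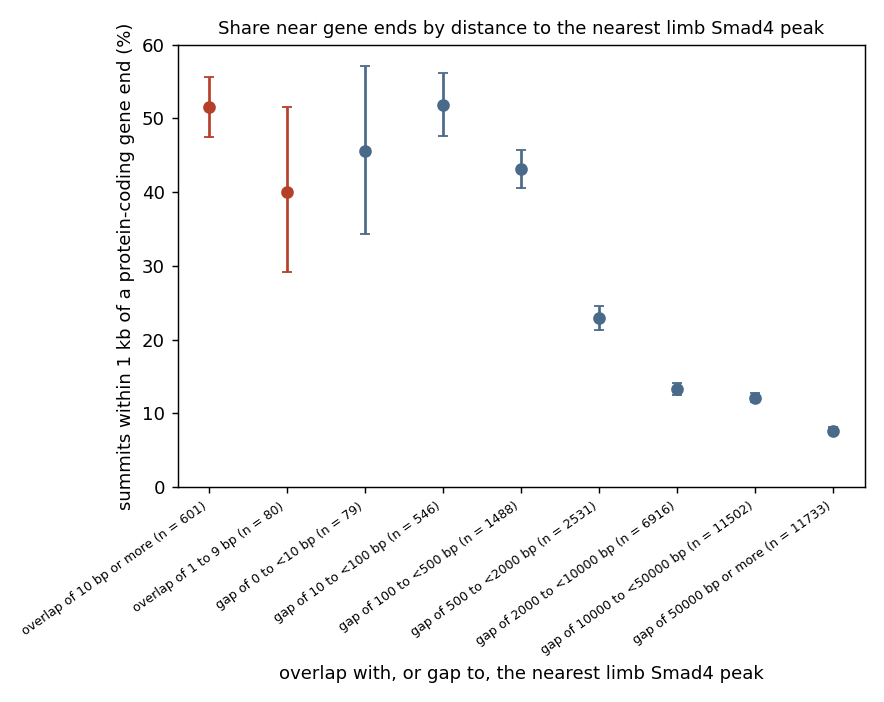
Percent of molar pSmad1/5 summits within 1 kb of a protein-coding gene end (y axis) by overlap with, or gap to, the nearest limb Smad4 peak (x axis), with exact 95% binomial intervals over peaks; red points are shared sites and blue points other peaks. The share is 51.6% at overlaps of 10 bp or more, 51.8% at gaps of 10 to under 100 bp and 7.69% at 50000 bp or more.

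Near-end shares were also taken for the limb partners and for other pairs of lists. Of the 680 limb Smad4 peaks under these sites 50.2% were near an end, against 17.2% of the other limb Smad4 peaks. The 50.2% largely restates the share at shared sites, because these are the partner peaks at the same loci. Molar pSmad1/5 peaks over limb pSmad1/5 had 45.8% near ends (181 of 395), and 43.1% (146 of 339) when those also over limb Smad4 were left out. Limb pSmad1/5 peaks over limb Smad4 had 39.2% (444 of 1134). The pair within the molar was lower, as molar pSmad1/5 peaks over molar Smad4 had 16.7% (35 of 209, 11.95 to 22.51%), close to the 14.4% of the whole molar pSmad1/5 list. The molar Smad4 list as a whole had 4.83% near ends, the lowest of the 4 lists.

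The molar pSmad1/5 list is uneven, because its lowest score, rounded down, is 2 on some autosomes and 3 on others. Near-end shares were therefore taken within each class. On autosomes with lowest score 2 the shares were 53.0% of 345 shared sites and 10.5% of the others, and on those with lowest score 3 they were 47.7% of 329 shared sites and 19.6% of the others. The gap between shared and other peaks was 42.5 points in the first class and 28.1 points in the second. Shared sites had the higher share on 19 of the 20 chromosomes that held any. The exception was chromosome 7, with 21.4% of 14 shared sites and 23.0% of 1162 others.

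**Figure D3:**
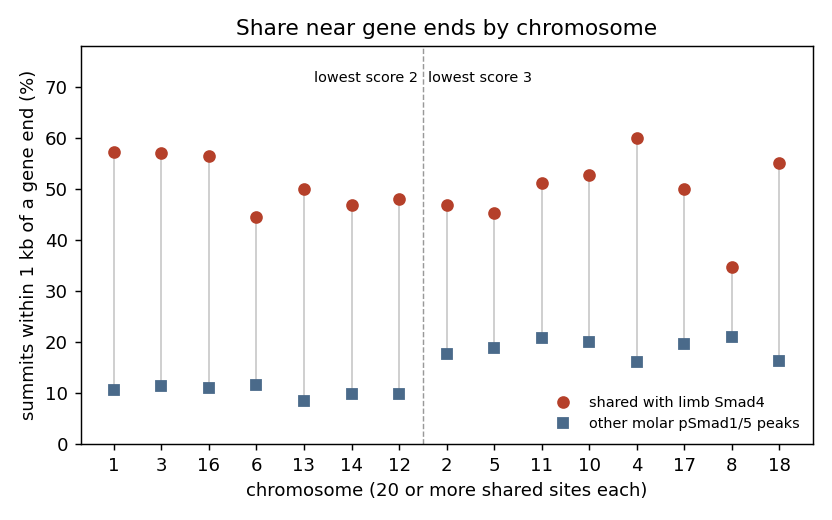
Percent of summits within 1 kb of a protein-coding gene end (y axis) on each of the 15 chromosomes with 20 or more shared sites (x axis, ordered by the lowest listed score and then by number of sites). The lowest value of shared sites is 34.6%, and other peaks run from 8.47 to 20.98%, with no overlap between the marks.

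Peak width and score moved with sharing too, though a wider peak meets an overlap rule of 1 bp more easily by construction. Shared peaks had a median width of 70 bp (quartiles 54 and 107) and the others 63 bp (54 and 79), and 9.001% of peaks of 150 bp or more were shared against 1.39% of those of 50 to under 75 bp. Within that narrow range 47.99% of 323 shared sites and 11.9% of the others were near an end, so shared sites were nearer to ends at equal width as well. The median deposited molar score was 3.23 at shared sites and 2.98 elsewhere. Within classes the medians were 2.70 and 2.503 (lowest score 2) and 3.53 and 3.44 (lowest score 3).

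Distances between the 2 factors' summits within a shared site are a description only, because the overlap rule bounds them. Summits were a median of 45 bp apart (quartiles 22 and 71), 382 sites (56.1%) had them within 50 bp, and the overlap had a median of 42 bp. Limb Smad4 peaks under shared sites had a median score of 3.81 and width of 82 bp, against 3.52 and 57 bp for the rest of that list. The overlap rule favours wider peaks here too. Across the 681 sites the molar pSmad1/5 score and the limb Smad4 score were almost unrelated (Pearson r 0.0753, Spearman rho 0.0887, as a description, since all points share the same 2 libraries and the same score floors). In 9 cases 1 limb Smad4 peak overlapped several molar sites, and in 9 cases 1 molar site met several limb peaks.

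**Figure D4:**
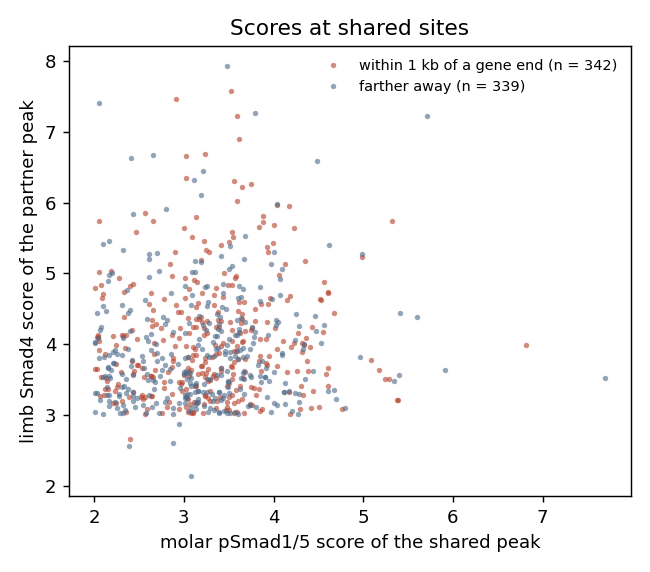
Deposited molar pSmad1/5 score (x axis) and limb Smad4 score of the partner peak (y axis) for each of the 681 shared sites, with sites within 1 kb of a gene end in red (342) and the rest in blue (339). The cloud has little slope (Pearson r 0.0753), and the highest molar score, 7.70, has a limb score of 3.52.

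The sites with the highest molar score mostly had moderate limb scores. Nearest to the top site, with scores of 7.70 in molar and 3.52 in limb, was Baiap2l2, a protein of membrane bending, 3328 bp from an end. The next, with 6.81 and 3.98, lay 556 bp past the start of Capn2, the catalytic subunit of a calpain protease. Ung, the uracil-DNA glycosylase of base excision repair, had an annotated end 2231 bp from a site of 5.91 in molar and 3.63 in limb. That site lay 83 bp past an annotated start of Alkbh2, a DNA demethylase of the AlkB family named here after its values were seen. Cwc22, a spliceosome protein, was 17777 bp from a site of 5.71 in molar and 7.23 in limb, the only one of the 10 highest with a limb score over 5. This gene lay in a cluster of peaks, with 13 molar pSmad1/5 and 36 molar Smad4 peaks within 50 kb. Mthfd1l, a mitochondrial folate enzyme, was 20604 bp from a site of 5.60 and 4.39. Of these 10, Kcnab2 (a potassium channel subunit, 175 bp) and Nefl (neurofilament light chain, 561 bp) also had the site within 1 kb. The other 3 of the 10 were nearest to 5730409E04Rik, B4galt6 and Syt13, at 25055, 30053 and 100833 bp.

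Some of these sites were also in one of the lists that did not define them. Limb pSmad1/5 overlapped 56 of 681 shared sites, 8.22% (6.271 to 10.55%), and 339 of 34795 other peaks, 0.974% (0.8737 to 1.083%). The difference held at gene ends (10.2 and 3.07%) and away from them (6.20 and 0.643%). Shared peaks were also wider, and the share over limb pSmad1/5 was not taken at equal width. By distance to limb Smad4 this share was 8.99% at overlaps of 10 bp or more, 2.5% at overlaps of 1 to 9 bp (2 of 80, 0.3042 to 8.741%), 7.59% at gaps under 10 bp, 6.96% at gaps of 10 to under 100 bp and 2.55% at 100 to under 500 bp. Molar Smad4 overlapped 8 shared sites, 1.17% (0.5085 to 2.302%), and 0.578% of the others (0.5008 to 0.663%), and these intervals overlap. No shared site was in all 4 lists (0 of 681, upper bound 0.540%). Of the other peaks 4 of 34795 were over both limb pSmad1/5 and molar Smad4 (0.0115%), a share within that bound.

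In all 64 shared sites were in such a further list and 37 of these lay within 1 kb of a gene end. Among those 37, the first by molar score was at Eif2b5, a subunit of the translation initiation factor that reloads eIF2 with GTP, 140 bp from an end (molar score 5.09, limb Smad4 score 3.77). Rab33b, a Golgi small GTPase, followed at 164 bp (4.56 and 4.88). Mast4, a serine/threonine kinase, had its site at 579 bp (4.55 and 4.18), and Ralgapa2, a GTPase-activating subunit for Ral, at 251 bp (4.19 and 4.68). The further list was limb pSmad1/5 at all of these. At Capn15 (258 bp, 3.995 and 5.42) it was molar Smad4. Ap5m1 (138 bp), Dtx1, a Notch regulator (981 bp), and Igfbp6, which binds insulin-like growth factors (494 bp), completed the 8 highest near gene ends.

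Genes were then assigned to sites within 50 kb of either end. Of 21887 protein-coding genes 1663 (7.6%) had a shared site there and 387 (1.77%) had one within 1 kb. Another molar pSmad1/5 peak was within 50 kb of 74.0% of genes and within 1 kb of 19.7%. Of the 1663 genes 1588 (95.5%) also had a molar pSmad1/5 peak that was not over limb Smad4, so few genes were marked by shared sites alone. Among all molar pSmad1/5 peaks within 50 kb of a gene 2.61% were shared. The counts for lists below are read against these figures. Distances given for named genes are to the nearer end, which need not be the start. Neighbouring genes share sites, and lists overlap, so the genes of a list are not independent. In each of the 21 pathway and tissue lists the share of genes with another molar peak within 50 kb was above that of all genes, for example 28 of 30 BMP-Smad targets, and the part of that in the counts was not tested.

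Components of the BMP pathway itself were counted first, in lists of 8 to 24 genes, where 1 gene moves the share by several percentage points. For the 19 genes of BMP and Gdf ligands the interval reached 17.65% and so holds the 7.6% of all genes. None of them had a shared site within 50 kb, although 15 had another molar pSmad1/5 peak there. Of 14 receptor genes only Acvr1b, a type I activin receptor, had one, at 18040 bp, and of 8 Smads only Smad9, another BMP-regulated Smad, at 20612 bp. Among 24 antagonists and modulators there were 3. The nearest was Grem1, the secreted BMP antagonist of the limb signalling loop, whose site at chr2:113758520-113758591 lay 81 bp from the start (molar score 3.36, limb Smad4 score 3.86). It was the only limb Smad4 peak within 50 kb of Grem1, and 1 other molar pSmad1/5 peak was there at 531 bp, with 0 peaks of limb pSmad1/5 and 0 of molar Smad4. Chrd (chordin) had 3 shared sites, the nearest at 3792 bp, and Fstl1, a follistatin-related protein, 1 at 32198 bp.

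By peaks, 7 of 131 molar pSmad1/5 peaks within 50 kb of listed BMP-Smad targets were shared (5.34%). The interval, 2.175 to 10.7%, holds the 2.61% of all peaks by genes. Of 30 listed BMP-Smad target genes 6 had a shared site, against 7.6% of all genes. Besides Grem1 and Smad9 these were Atoh8, a basic helix-loop-helix factor (355 bp, 2 shared sites), Hes1, a Notch and BMP responsive repressor (443 bp), Gata2 (4218 bp) and Prdm16 (25473 bp). The best known targets were not among them, though at the 7.6% of all genes a short list would often hold none. Id1 had no shared site within 50 kb, and its nearest was at 66663 bp. Id2, Id3, Msx1, Msx2, Bmp4, Smad6, Smad7, Fgf8 and Pax9 had none within 50 kb either, at distances from 366739 bp (Smad7) to 5098035 bp (Pax9). These genes did have peaks of each factor separately. Msx1 had molar pSmad1/5 59 bp and limb Smad4 66 bp from its ends, in 5 and 3 peaks within 50 kb, and Id3 had limb Smad4 at 87 bp but its only molar pSmad1/5 peak at 27674 bp. Bmp4 had limb Smad4 at 142 bp and molar pSmad1/5 at 2489 bp, and Pax9 at 985 bp and 1651 bp.

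In the list of TGF-beta ligands, corepressors and targets 7 of 118 molar pSmad1/5 peaks were shared (5.93%). The interval, 2.418 to 11.84%, holds the 2.61% of all peaks by genes. By genes, 5 of 18 had a shared site (27.8%, 9.695 to 53.48%), an interval above the 7.6% of all genes. Ltbp3, a latent TGF-beta binding protein, had it at 408 bp, at the finish of the gene, Ccn2, a matricellular TGF-beta target, at 481 bp, and Ltbp1 at 902 bp. Skil, a Smad corepressor, and Inha, the inhibin alpha subunit, had theirs at 27123 and 27374 bp. Of 17 hedgehog pathway genes 4 had one (23.5%, 6.811 to 49.9%), an interval that holds 7.6%. Of their 104 peaks 4 were shared (3.85%, 1.058 to 9.556%), also an interval holding 2.61%. Ptch1, the hedgehog receptor, had its site 530 bp from the start (molar score 2.87, limb Smad4 score 3.30). Shh, the ligand expressed in both the dental epithelium and the limb polarizing region, had its site 1368 bp from an end at chr5:28458085-28458235 (3.48 and 3.98), and it also overlapped limb pSmad1/5 by 13 bp. Gli2, a transcriptional effector, had 1 at 3400 bp among 21 molar pSmad1/5 peaks, and Ihh 1 at 48572 bp.

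Tooth and limb lists gave similar counts. Of 40 dental mesenchyme genes 6 had a shared site, of 32 dental epithelium genes 5 and of 45 limb patterning genes 8. These are 15.0% (5.71 to 29.84%), 15.6% (5.275 to 32.79%) and 17.8% (8.002 to 32.05%), against 7.6% of all genes. Only the limb interval lies above 7.6%. By peaks the shares were 3.93%, 4.29% and 3.14%, and each interval holds the 2.61% of all peaks by genes. Members in common were Ptch1, Shh, Pitx1 and Dlx2. The dental mesenchyme genes were Ptch1, Gli2, Dlx1, Dlx2, Prrx2 (a homeobox gene, 43392 bp) and Sfrp2, a secreted Wnt antagonist (823 bp). At Dlx1, a homeobox gene of dental mesenchyme, 3 molar pSmad1/5 peaks overlapped a single limb Smad4 peak at chr2:71529429-71529654. The first and last met only its edges and had summits outside it. The 3 molar summits were 37 bp before and 123 and 226 bp after an annotated start (scores of 3.35, 3.43 and 3.01). The same 3 sites were within 50 kb of Dlx2. In the dental epithelium list Wnt6 (1740 bp) and Wnt10a (8437 bp) shared 1 site, and Pitx1 had 1 at 5198 bp. The limb list had Grem1, Ptch1, Shh, Sall4 (1837 bp), Pitx1 and 3 Hox genes that share 1 site.

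**Figure D5:**
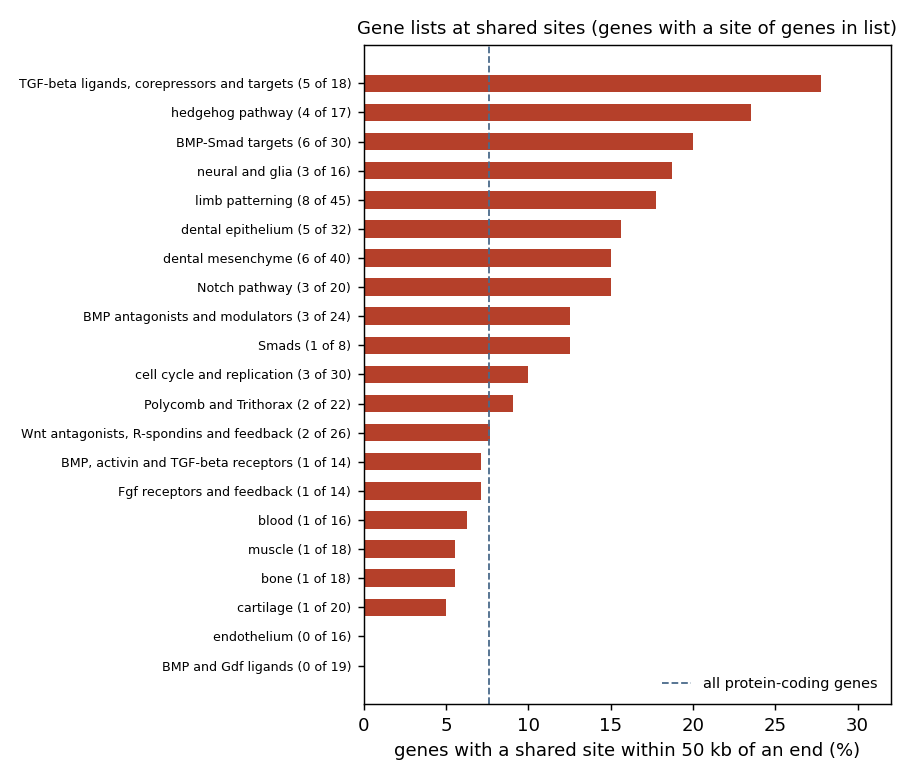
Percent of the genes of each list with a shared site within 50 kb of an end (x axis), one bar per list with its count and size, and a dashed line at the share of all protein-coding genes (7.6%). The TGF-beta list is highest with 5 of 18 genes, and BMP ligands and endothelial genes are at 0.

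The remaining lists had 14 to 30 genes each, and the interval of each over genes holds the 7.6% of all genes. Notch genes had 3 of 20 (Hes1, Jag2 at 20644 bp and Hes6 at 39420 bp), Wnt antagonists and feedback genes 2 of 26 (Sfrp2 and Sfrp4 at 3677 bp), and Fgf receptors and feedback genes 1 of 14 (Spry1, 26226 bp). Skeletal lists had 1 of 20 for cartilage (Ihh) and 1 of 18 for bone (Spp1, 18787 bp). Genes that mark other cell types in the dissected tissue had 1 of 18 for muscle (Pax3, 625 bp), 0 of 16 for endothelium, 1 of 16 for blood (Tal1, 6965 bp) and 3 of 16 for neural and glial cells. The neural genes were Neurog2 (1352 bp), Prph (28551 bp) and Neurog1 (28909 bp), 18.75% of that list (4.047 to 45.65%). By peaks, 3 of their list's 45 were shared (6.67%, 1.397 to 18.27%). This was the highest peak share of the 21 lists, with an interval holding the 2.61% of all peaks by genes. Cell cycle and replication genes had 3 of 30 (Cdk2, Mcm2 and Ccna2, at 1814, 3758 and 43398 bp). Polycomb and Trithorax genes had 2 of 22, of which Jarid2 (3015 bp, molar score 4.79) was also over limb pSmad1/5 and Pcgf2 was at 23015 bp.

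Counts of genes and counts of sites differed most in clustered families. The Hox family had 11 of 39 genes with a shared site within 50 kb (28.2%, 15.0 to 44.87%), against 7.6% of all genes. By peaks, 2 of its 52 molar pSmad1/5 peaks were shared (3.85%, 0.4692 to 13.21%), an interval holding 2.61%. One of them, 636 bp from Hoxa5 and 907 bp from Hoxa6 (molar score 4.19, limb Smad4 score 3.96), lay within 50 kb of 10 genes of the Hoxa cluster, and the other was 629 bp from Hoxb13. Dlx and Msx genes had 2 of 9, from 3 of 18 peaks. Wnt genes had 2 of 19 from 1 site, and Pax genes 2 of 9, Pax3 and Pax2 (3957 bp, also over limb pSmad1/5). Gata genes had 2 of 6 (Gata2 and Gata4 at 5035 bp). Forkhead genes had 3 of 44, of which Foxn4 had a site over both limb lists, with the molar pSmad1/5 summit 36 bp from an end of the gene and the nearest limb Smad4 and limb pSmad1/5 summits 91 and 24 bp from one. Sox (2 of 19: Sox4 and Sox15), Fgf (2 of 22: Fgf11 and Fgf13), Tbx (1 of 16: Tbx1, 1840 bp) and collagen genes (2 of 44: Col4a3 and Col18a1) had few, and Irx (0 of 6) and Klf and Sp genes (0 of 29) had none.

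Larger families were counted in the same way. Solute carriers had 37 of 364 (10.2%), with Slc5a5, the sodium/iodide carrier, at 49 bp, Slc52a3 at 55 bp and Slc39a6 at 69 bp nearest. Cytosolic ribosomal proteins had 12 of 83 (14.5%, 7.7 to 23.89%), against 7.6% of all genes. Of their 251 peaks 11 were shared (4.38%, 2.208 to 7.706%), an interval holding 2.61%. Within 1 kb the family had 1 gene (1.205%), near the 1.77% of all genes. This was Rps10, at 7 bp from the start (molar score 3.96, limb Smad4 score 4.65). Guidance genes (semaphorins, plexins, ephrins, Slit and Robo) had 9 of 60 genes, but 7 of their 286 molar pSmad1/5 peaks were shared (2.45%), near the 2.61% of all peaks by genes. Nearest were Efna3, whose sequence is printed above, at 40 bp, and the receptor Plxna4, at 842 bp. Zfp zinc finger genes had 22 of 394 (5.58%), with Zfp24 at 92 bp nearest. Olfactory receptor genes had 4 of 1110 (0.360%), from 2 sites, and other molar pSmad1/5 peaks were also within 50 kb of only 246 of them. Names matched by the histone pattern gave 3 of 83, of which H13 encodes a signal peptide peptidase and not a histone.

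Repeated sites at a gene were uncommon. Within 50 kb, 192 genes had 2 or more shared sites and 49 had 3 or more. The gene with most was Nes, which encodes the intermediate filament nestin of progenitor cells, with 5. Its neighbours Crabp2, a retinoic acid binding protein, Bcan and Hapln2, both of brain extracellular matrix, had 4 and Isg20l2 3, counting many of the same sites. A pair of the Nes sites, 184 and 310 bp from the start, overlapped 1 limb Smad4 peak at chr3:87971263-87971445. Away from this cluster Arid3a, an AT-rich DNA-binding factor, had 4 shared sites among 15 molar pSmad1/5 peaks.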

How the data were processed

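Peaks were called with BCP_TF, per the labels, and the authors deposited 1 list per library giving each peak's position, length and summit with its score and p-value. The score, as deposited, ranked and filtered peaks, while the deposited p-value entered no test. Per the submitters' processing notes the build was mm10 and bcl2fastq, Bowtie2, SAMtools, bedtools and deepTools were used. Their versions and roles, the use of the inputs and the handling of duplicates and problem regions are not given in the sources used here. The lists hold no read counts, so depth is unknown.

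The labels give 1 sample per tissue and antibody, so no p-value was computed. Gene positions and promoter windows came from RefSeq on GRCm38.p6. The gene table has no strand, so distances were taken to either end of 21887 protein-coding genes where start sites had been planned. Starts were known for 17492 of them (79.9%), with none on chromosome 18. Exons and introns were not separated. Overlap was at least 1 bp, "near" was within 1 kb and genes were assigned within 50 kb.

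The members, the 21 gene lists and the 18 name-based families were chosen with earlier results of these data known. Named were the genes nearest to the 10 highest-scoring sites, up to 6 per list or family by distance, up to 8 near-end sites in a further list, up to 6 genes with 3 or more sites, and 12 fixed genes. Other names, and the bins of gap to limb Smad4, were chosen after the values were seen. Alternatives were an overlap of at least 0.5 of the molar peak, summits within 100 bp, scores of at least 3 or 4, score-floor classes, other distances, all annotated genes and nearest genes only. Starts only, peaks of 50 to under 75 bp and peaks over 1 kb from a gene end were added after seeing the data. Overlap and counting were tested on simulated data. The tools were scipy 1.17.1 and statsmodels 0.14.6 for intervals, pandas 2.3.3 and numpy 2.4.6 for tables and matplotlib 3.10.9 for plots, under Python 3.11.15.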

Additional observations from a re-analysis of the deposited data

How the results depend on the processing

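The share near gene ends was higher at shared sites than at other peaks under each alternative run for it. Not every alternative was run for every value, and motif shares were not recomputed. Requiring an overlap of at least 0.5 of the molar peak left 337 sites (0.9499% of peaks, 904 genes within 50 kb), and summits within 100 bp gave 2.30% of peaks. With scores of at least 3 in both lists there were 450 sites (2.54%), other peaks had 18.96% near ends and a median distance of 11970 bp, and 1.30% and 0.428% of them were over limb pSmad1/5 and molar Smad4. With scores of at least 4 there were 47 sites (1.33%, 109 genes), 24.5% of other peaks were near ends, the difference was 28.7 points, the median distances were 642 and 9025 bp, 1.84% of other peaks were over limb pSmad1/5, and 0.0% of shared sites were over molar Smad4.

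Autosomes with lowest score 3 gave 329 sites (2.59%, 943 genes), 19.6% of other peaks near ends, a difference of 28.1 points and a median distance of other peaks of 10180 bp, with 1.27% and 0.332% of other peaks over limb pSmad1/5 and molar Smad4. Autosomes with lowest score 2 gave 345 sites (1.62%, 706 genes), 10.5%, 42.5 points, 27540 bp, 0.7996% and 0.671%. Within 500 bp the near-end shares were 38.2% and 9.34% (28.8 points), within 2000 bp 59.6% and 18.6% (41.0 points) and within 5 kb 71.8% and 28.2% (43.6 points). With all annotated genes they were 56.1% and 17.8%. Other peaks had 10.9% near starts only and 11.9% near ends at widths of 50 to under 75 bp. Over 1 kb from gene ends 6.20% of shared sites and 0.643% of others were over limb pSmad1/5. Assigning genes within 10 kb gave 766 genes, within 1 kb 387, and by nearest gene only 647. Of 351 list counts under alternatives, 214 moved by more than 1.5 times, 204 of them downward. Apart from summits within 100 bp and nearest gene only, these alternatives keep fewer sites or a shorter distance. Under them a list count could only stay or fall. The count over all genes fell as well, for example from 1663 to 766 within 10 kb. The moves therefore do not show how a list stands against all genes. No paired analysis was possible because each group has 1 library. Depth is unknown, so a missing overlap does not show that a factor was absent.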
